A study of Mus musculus with 20 samples.

Results

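The genes described are 10 immediate early genes, the transcription factors Fos, Fosb, Fosl2, Jun, Junb, Egr1, Egr2, Egr3 and Egr4 and the synaptic gene Arc. They were chosen by name among the 57180 Ensembl gene identifiers of the count table, each matched 1 identifier, and all 10 were tested in every comparison. Messenger RNA of mouse brain punches was sequenced as poly(A)-selected, stranded libraries. Mice with painful diabetic neuropathy (PDN) had received a single intraperitoneal injection of 200 mg/kg streptozotocin (STZ), which destroys pancreatic beta cells, and control mice had received vehicle. Tissue was taken at week 7 from the paraventricular thalamic nucleus (PVT), a midline thalamic nucleus of arousal and aversion, and from the posterior insular cortex (pIC), which processes pain and body state. The libraries were 6 PVT STZ, 4 PVT control, 6 pIC STZ and 4 pIC control, with no strain, sex or age given in the sources used here.

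Immediate early genes are transcribed within minutes of synaptic activity, without new protein synthesis, when calcium and cAMP signals activate kinases that act on CREB and on serum response factor at their promoters. FOS and JUN proteins pair as the AP-1 factor, EGR proteins are zinc finger factors that bind GC-rich sites, and both switch on later genes. ARC is an effector instead, which removes AMPA receptors from synapses. In neuroscience the RNA of these genes is widely used as a trace of recent neuronal activity, and it decays quickly.

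RefSeq promoters of build GRCm38.p6, 250 bases before to 50 after the start, were at hand for 7 of the genes and give the DNA next to the start. The pentamer TGACG, the shorter part of the cAMP response element, was in the promoters of 5 of the 7 (Fos, Fosb, Junb, Egr2 and Egr4), against 20.9% of 32544 mouse promoters of the same length. A gene was counted if any of its promoter entries matched, as for Egr2 with several entries, while the percentages count single promoter sequences. A serum response element (CArG box) was in Egr2 alone of the 7, against 1.64% of all, and the full element TGACGTCA was in none of the 7, against 1.8%. Both strands were searched within this window only, so a site farther from the start would be missed, and a match describes letters only. In the stretches below, capitals mark the pentamer on either strand, the TATAAA of Fos and a CArG box of Egr2. Each stretch lies before the start of the promoter entry used. For Egr2, with several entries, the stretch lies after the start of the earliest entry. That earliest entry has a CArG box of its own, at −72 from its start, which is not shown.
Fos, chr12:85473746-85473877, plus strand: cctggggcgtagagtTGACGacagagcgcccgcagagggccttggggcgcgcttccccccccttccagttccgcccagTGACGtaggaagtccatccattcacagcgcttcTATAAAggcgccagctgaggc
Fosb, chr7:19310086-19310120, minus strand: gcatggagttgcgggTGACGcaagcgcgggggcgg
Junb, chr8:84978835-84978869, minus strand: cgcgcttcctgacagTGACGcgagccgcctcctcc
Egr2, chr10:67537791-67537820, plus strand: ctcagtCCATATATGGgcagcgaCGTCAcg
Egr4, chr6:85513679-85513781, minus strand: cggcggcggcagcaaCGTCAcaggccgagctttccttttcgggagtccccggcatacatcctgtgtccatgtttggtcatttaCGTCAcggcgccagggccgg

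Total counts were 17.9 M to 25.5 M per library. Cortical excitatory neuron markers (10 genes) summed to 1611 to 2794 CPM, which are counts scaled to library size, in pIC STZ and 2242 to 2606 CPM in pIC control libraries. Thalamus neuron markers (12 genes) summed to 507 to 2123 CPM in PVT STZ and 510 to 1110 CPM in PVT control libraries, so the PVT punches held them in unequal amounts. Striatal neuron markers (8 genes) spanned 345 to 2958 CPM in pIC STZ and 352 to 1182 CPM in pIC control libraries. PVT control replicate 4 held hypothalamic and pituitary genes (9 genes) at 14821 CPM, against at most 918 CPM in the other PVT libraries of either group. The pIC control replicate 4 held them at 45.5 CPM, against at most 4.88 CPM in the other pIC libraries of either group.

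In the pIC, 4 of the 10 genes were lower in STZ mice. These 4 were Fos, Egr1, Egr2 and Egr4 (edgeR, adjusted p under 0.05), 0 were higher, and 0.964% of the 16189 genes tested were called lower. The groups did not overlap for 7 members, which add Fosb, Fosl2 and Junb and were all lower, against 2.31% of all genes. The median log2 fold change of the 10 was −0.73, against −0.000626 over all genes tested. In bulk tissue, fewer cells that express a gene and less RNA per cell cannot be told apart.

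**Figure D1:**
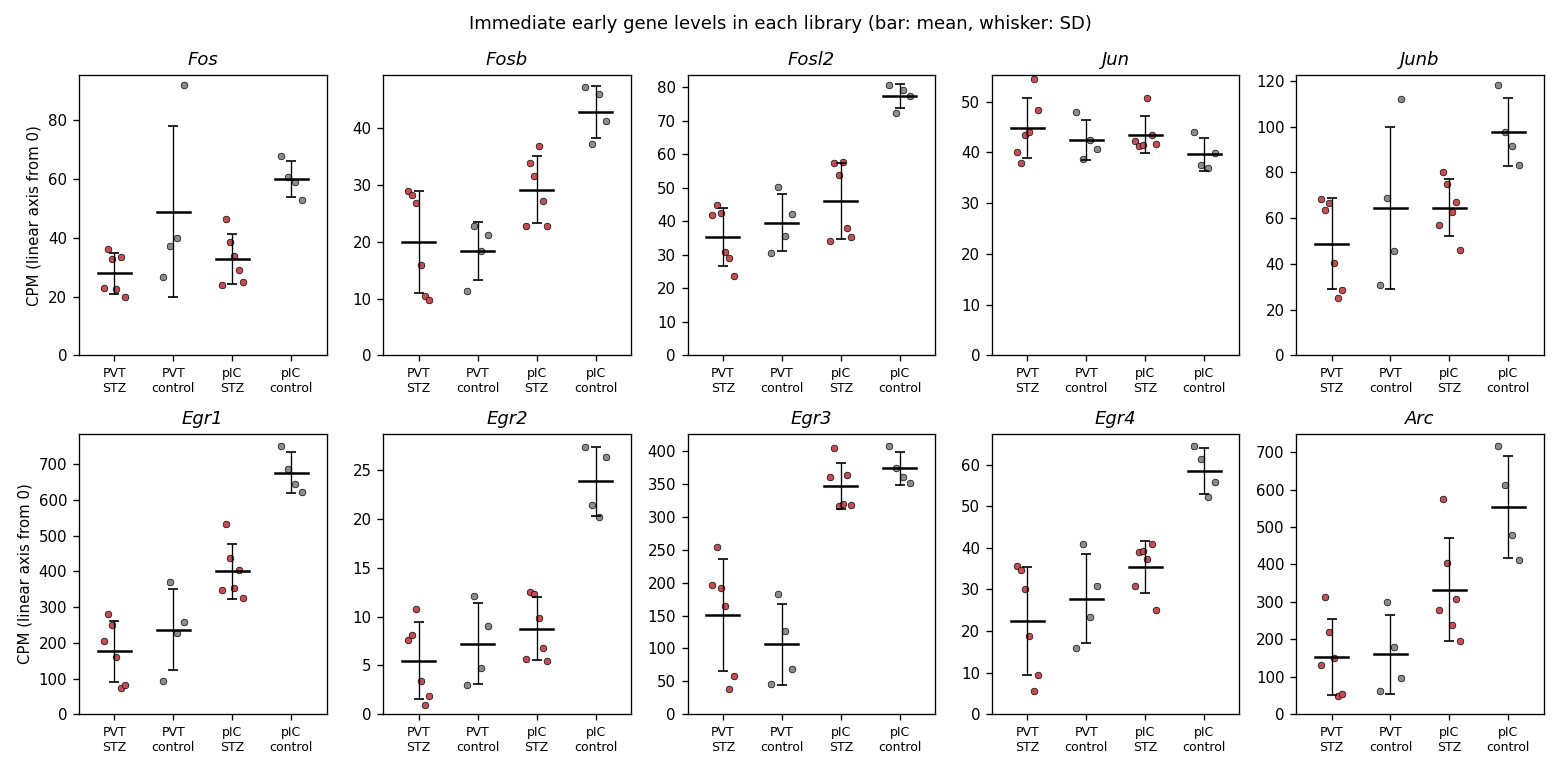
CPM of each of the 10 genes in every library (points, linear axes from 0), with the mean (bar) and SD (whisker) of the 6 STZ and 4 control libraries of each region. In the pIC, STZ points lie below control points for 7 genes and overlap them for Jun, Egr3 and Arc, while in the PVT the groups overlap for all 10.

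Within the FOS family, Fos (ENSMUSG00000021250), the AP-1 subunit most used to map active neurons, had 24.0 to 46.4 CPM (median 31.4) in pIC STZ libraries, against 67.8, 60.6, 59.1 and 52.9 CPM in pIC control libraries. The highest STZ library thus lay below the lowest control library. Its log2 fold change was −0.87 (SE 0.17, adjusted p = 0.0392), so that Fos fell by 45.4%. Fosl2 (ENSMUSG00000029135), the FOS relative FRA2, had 34.1 to 57.6 CPM (median 46.0) in STZ and 80.5, 72.4, 79.0 and 77.2 CPM in control libraries. All 6 STZ libraries were below all 4 controls, and its log2 fold change was −0.75 (SE 0.16, adjusted p = 0.0584), just short of a call. Fosb (ENSMUSG00000003545), whose stable short form accumulates in neurons with repeated activity and is not told apart by gene counts, had 22.8 to 36.8 CPM (median 29.3) in STZ and 47.2, 37.1, 45.9 and 41.2 CPM in control libraries. Its groups were separate by a margin of only 36.8 against 37.1 CPM, and its log2 fold change was −0.56 (SE 0.14, adjusted p = 0.0823).

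The 2 JUN genes, which encode the partners of FOS proteins, gave different values. Junb (ENSMUSG00000052837) had 45.9 to 80.2 CPM (median 64.8) in pIC STZ libraries, against 118, 97.8, 91.6 and 83.1 CPM in pIC control libraries. Its STZ libraries were all below the controls, with a log2 fold change of −0.60 (SE 0.15, adjusted p = 0.0913). Jun (ENSMUSG00000052684) had 41.2 to 50.8 CPM (median 42.0) in STZ and 44.1, 37.6, 37.0 and 39.9 CPM in control libraries. These groups overlapped, and the log2 fold change was 0.13 (SE 0.07, adjusted p = 0.54).

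Of the EGR family, Egr2 (ENSMUSG00000037868), also called Krox20, showed the largest fold change of the 10 genes in the pIC. It had 5.48 to 12.5 CPM (median 8.31) in STZ libraries, from 98 to 299 counts, against 27.4, 21.4, 20.2 and 26.3 CPM in control libraries, from 412 to 612 counts. No STZ library reached the lowest control, and the log2 fold change was −1.44 (SE 0.24, adjusted p = 0.0189), so that Egr2 fell by 63.2%. Egr1 (ENSMUSG00000038418), or Zif268, a factor tied to synaptic plasticity, had 326 to 534 CPM (median 379) in STZ and 752, 688, 644 and 623 CPM in control libraries. Its log2 fold change was −0.76 (SE 0.12, adjusted p = 0.0103), with every STZ library under the lowest control. Egr4 (ENSMUSG00000071341) had 25.0 to 40.9 CPM (median 38.1) in STZ and 64.5, 61.3, 52.1 and 55.8 CPM in control libraries. These groups too were separate, with a log2 fold change of −0.73 (SE 0.12, adjusted p = 0.0105). Egr3 (ENSMUSG00000033730), known for its need in muscle spindle formation, stood apart from them with 317 to 404 CPM (median 340) in STZ and 408, 374, 360 and 352 CPM in control libraries. The Egr3 groups overlapped, with a log2 fold change of −0.11 (SE 0.07, adjusted p = 0.614).

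Arc (ENSMUSG00000022602) had 195, 238, 278, 309, 403 and 575 CPM in pIC STZ libraries, given in rising order, against 716, 612, 479 and 411 CPM in pIC control libraries. Only STZ replicate 2, at 575 CPM, reached into the control range. The log2 fold change was −0.74 (SE 0.31), about as large as that of Egr1, but the spread was wider and the adjusted p was 0.395.

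**Figure D2:**
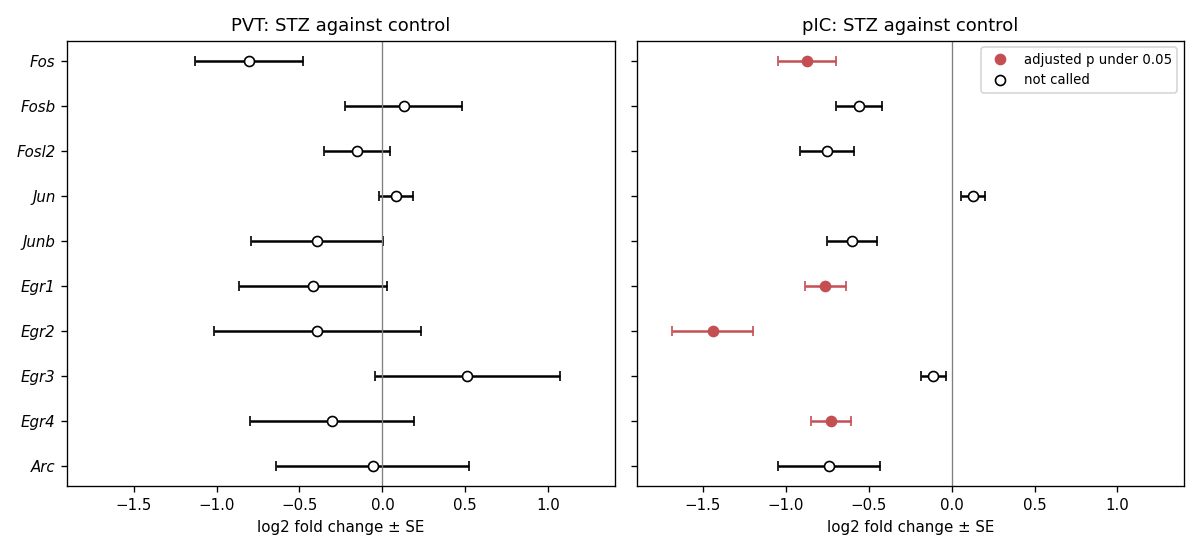
Log2 fold change (x axis) of STZ against control for each gene, with its SE, in the PVT (left) and the pIC (right), filled red where the adjusted p was under 0.05. In the pIC, 4 genes are filled and Jun and Egr3 lie nearest 0, and in the PVT none is filled and the errors are wider.

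The calls in the pIC rested on few control libraries. Without control replicate 2, 0 of the 10 were called, with adjusted p of 0.0557 for Egr1, 0.0502 for Egr2, 0.0583 for Egr4 and 0.128 for Fos. Leaving out control 1 or control 4 left 2 called (Egr1 and Egr4), and a fit of all 20 libraries called 0. The direction stayed the same for each of the 10 in all 19 alternatives. DESeq2 and limma-voom with quality weights each called 7, the 7 genes whose groups did not overlap. The call of Fos was the least stable, lost without any 1 control library (adjusted p 0.0706 to 0.128) and without STZ replicate 3 (0.0565), 4 (0.0873), 5 (0.0842) or 6 (0.0607). The adjusted p over the alternatives ran from 1.47e-05 to 0.375 for Fos, 1.71e-07 to 0.473 for Egr1, 4.44e-08 to 0.217 for Egr2 and 2.02e-06 to 0.55 for Egr4.

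Of the 12 cell type and region marker lists, 11 had 0 members called in the pIC. Summed neuron markers (6 genes) were 6787 to 8339 CPM in STZ and 7827 to 8093 CPM in control libraries. Of 10 cortical excitatory markers 0 were called and 9 were lower in STZ (median log2 fold change −0.08), and their part in the result was not tested. Striatal markers had a median of 0.72 and were higher in STZ for 8 of 8, with 0 called, and their part in the result was not tested. Without the 4 pIC libraries highest in striatal markers (STZ replicates 3, 4 and 6 and control replicate 3), the log2 fold changes were −0.69 for Egr1, −1.59 for Egr2 and −0.87 for Fos, and 1 gene was called, Egr4. Blood markers were higher in STZ for 5 of 5 (median 0.57, 3 at an unadjusted p under 0.05), and their part in the result was likewise not tested. The remaining list, endothelium, had 1 of 8 called, Tek, lower in STZ. Defining genes of microglia and astrocytes, cells that also make FOS and EGR transcripts, had 0 of 7 and 0 of 6 called, with 6 of the 7 microglia genes lower in STZ (median −0.11).

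The members were also set against each other within each library, where depth and scaling cancel, as the log2 ratio of 2 genes' counts. The denominators, Egr3 and Jun, were chosen after their values were seen, so the ratios describe these libraries. An exact permutation test was run on each ratio, and because of that choice its p-values are not given as evidence. In the pIC the log2 ratio of Egr1 to Egr3 was −0.05 to 0.47 in STZ and 0.82 to 0.88 in control libraries, that of Egr2 to Egr3 −5.98 to −4.69 in STZ and −4.15 to −3.74 in control libraries, and that of Egr4 to Egr3 −3.67 to −3.01 in STZ and −2.79 to −2.61 in control libraries. The log2 ratio of Fos to Jun was −0.82 to 0.17 in STZ and 0.41 to 0.69 in control libraries. None of these 4 ratios overlapped between the groups.

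In the heat map of library values, most of the 10 genes varied together. Among pIC control libraries, replicate 1 was highest for all 10 genes. Among pIC STZ libraries, replicate 2 was highest for 6 (Fos, Junb, Egr1, Egr2, Egr3 and Arc), replicate 6 was lowest for 5 and replicate 1 for 3. After each library's value was taken as its deviation from its group mean, 42 of 45 pairs of the 10 genes had a positive Pearson correlation over the 10 pIC libraries, with a median of 0.66. Over the 10 PVT libraries 36 of 45 pairs were positive, with a median of 0.84. The lowest, −0.956, was that of Jun with Egr4. The pairs share depth and scaling within a library, and the coefficients are descriptive. Pairs of other genes were not computed, so whether the 10 differ from them is not known.

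**Figure D3:**
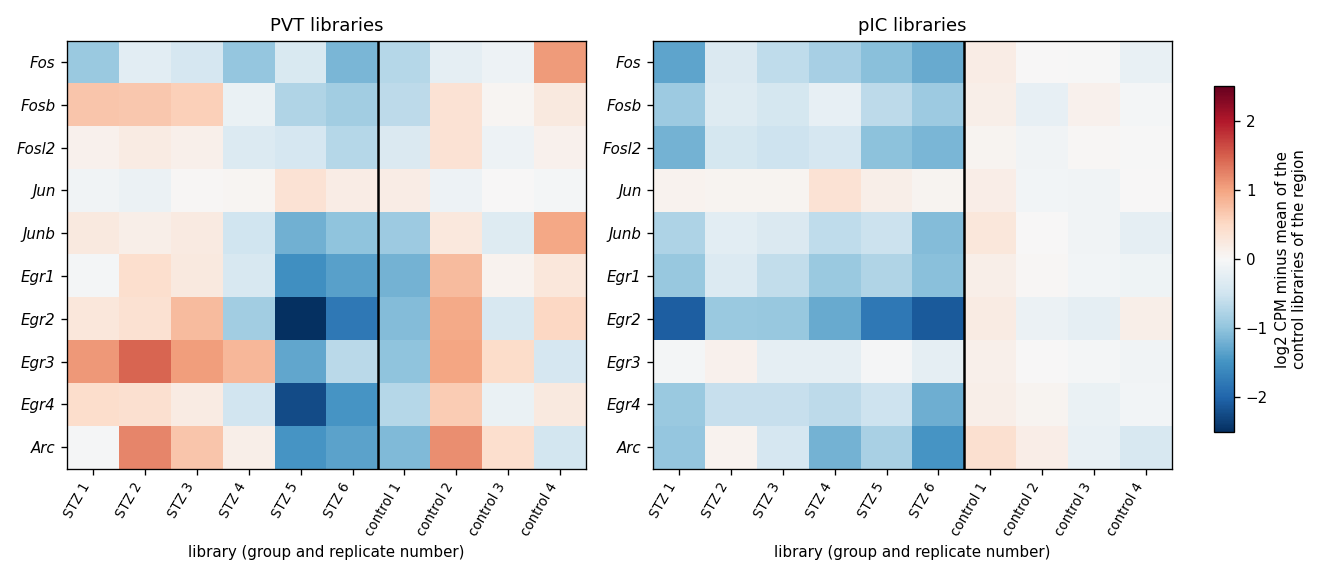
Each cell is the log2 CPM of a gene (rows) in a library (columns) minus the mean of the control libraries of that region, with STZ libraries left of the black line and control libraries right of it. In the pIC, Fos, Fosb, Fosl2, Junb, Egr1, Egr2 and Egr4 are below the control mean (blue) in all 6 STZ columns, Egr3 (palely) and Arc in 5, and Jun in 0. In the PVT, STZ replicates 5 and 6 and control replicate 1 are blue for the EGR genes and Arc.

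The pathway around the members was described by 6 lists, 92 other genes in all, of which 90 were tested in the pIC and 6 were lower and 0 higher. Upstream of the members, 0 of 24 kinases and transcription factors were called (4 at an unadjusted p under 0.05, median log2 fold change 0.03), and the member of smallest p was Elk1, the serum response factor partner, with 0.33 (SE 0.08, adjusted p = 0.0795). Among other AP-1 and small MAF partners 0 of 9 were called, 2 at an unadjusted p under 0.05, and Atf3, a stress-induced AP-1 partner, had −0.77 (SE 0.19, adjusted p = 0.0645) with means of 1.11 ± 0.18 CPM in STZ and 1.90 ± 0.32 CPM in control libraries (SD, n = 6 and 4). Of the 2 EGR corepressors, Nab2, itself an EGR target that binds EGR proteins and curbs them, fell by 0.59 in log2 units (SE 0.12, adjusted p = 0.0335). Its level was 39.5 ± 6.87 CPM in STZ and 59.5 ± 6.33 CPM in control libraries, and its call was lost without any 1 of the 4 controls (adjusted p 0.0541 to 0.113) and without STZ replicate 1 (0.0719), 4 (0.0714) or 5 (0.0591). The call was also lost with no filter beyond 1 count (0.102), a replicate block (0.116) and all 20 libraries in 1 fit (0.231). Without the 4 pIC libraries highest in striatal markers its adjusted p was 0.0505.

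Of 33 other immediate early genes, 5 were lower and 0 higher in the pIC, and the list's median was −0.33. Klf10, a zinc finger factor induced by growth factors, fell by 1.00 in log2 units (SE 0.12, adjusted p = 8.1e-04), with 38.4 ± 6.83 CPM in STZ and 76.5 ± 7.75 CPM in control libraries. Gadd45b, which promotes DNA demethylation in stimulated neurons, fell by 0.47 (SE 0.08, adjusted p = 0.00561). These 2 calls held when any 1 library was left out and were lost with all 20 libraries in 1 fit (adjusted p 0.178 and 0.211). Ier5l fell by 0.72 (SE 0.13, adjusted p = 0.0183), a call lost without control replicate 1 (adjusted p = 0.0705), 2 (0.091) or 4 (0.0602). It was also lost with all 20 libraries in 1 fit (0.133). The other called genes, Nr4a3 and Plk3, are outside the naming rule and were added after their values were seen. Nr4a3, an orphan nuclear receptor, fell by 0.85 (SE 0.16, adjusted p = 0.0243), a call lost when control 1 (0.0682), control 4 (0.0749) or STZ 5 (0.0567) was left out. It was also lost with no filter beyond 1 count (0.0908) and with a replicate block (0.205). Without the 4 pIC libraries highest in striatal markers, neither Nr4a3 (0.0923) nor Plk3 (0.0877) was called. Plk3, a polo-like kinase, fell by 0.65 (SE 0.14, adjusted p = 0.0373), and its call was lost without any 1 of 8 libraries (adjusted p 0.0541 to 0.158). In the late genes that activity induces, such as the neurotrophin Bdnf, 0 of 14 were called (1 at an unadjusted p under 0.05, median −0.05). Ptgs2, the cyclooxygenase COX-2, had the smallest p of them, with −0.53 (SE 0.15, adjusted p = 0.127). Among partners of ARC 0 of 9 were called and 0 had an unadjusted p under 0.05, the smallest p being that of Rnf216, a ubiquitin ligase that marks ARC for degradation (0.13, SE 0.07, adjusted p = 0.481).

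**Figure D4:**
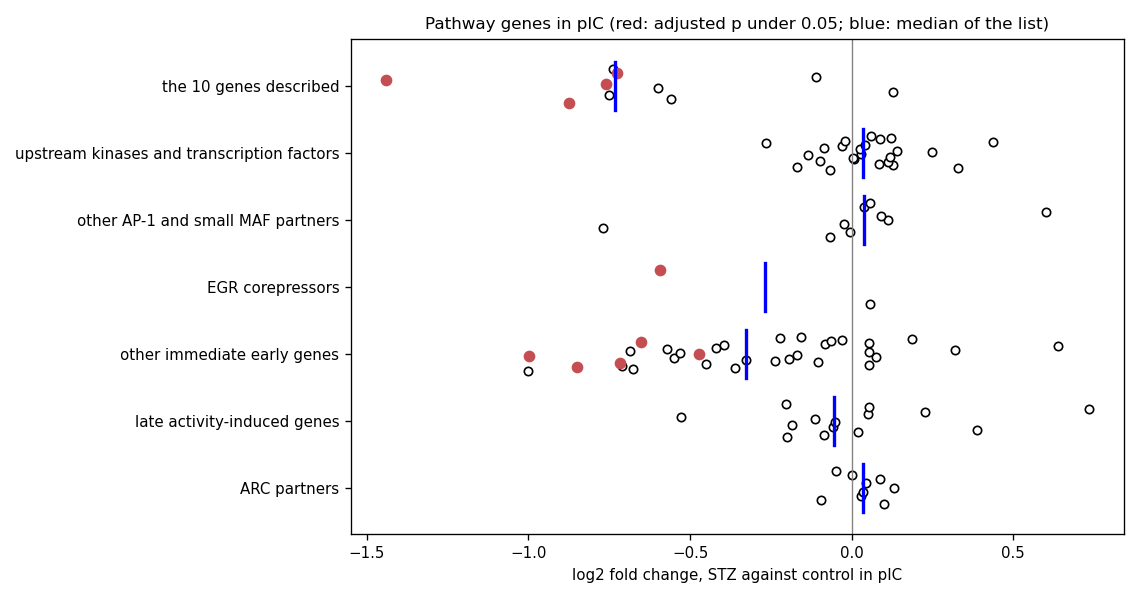
Log2 fold change in the pIC, STZ against control, of the 10 genes described and of the tested members of 6 lists of related genes (rows), with called genes in red, the rest open and each list's median as a blue line. The 10 genes (median −0.73) and the other immediate early genes (median −0.33) lie to the left, and the upstream and late lists lie near 0.

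In the PVT, 0 of the 10 genes were called (edgeR, against 2.07% of the 17076 genes tested, in either direction), 1 had an unadjusted p under 0.05, and DESeq2 and limma-voom also called 0. All 10 had overlapping groups. Fos had 19.8 to 36.3 CPM (median 27.8) in PVT STZ libraries, against 26.7, 37.2, 40.0 and 91.8 CPM in PVT control libraries. The value of 91.8 CPM was that of control replicate 4, the library with pituitary genes, which was also highest in Junb at 112 CPM. The log2 fold change of Fos was −0.81 (SE 0.33, adjusted p = 0.236) and was −0.30 without that library.

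The EGR genes and Arc spanned far more in the PVT than in the pIC. Egr2 had 0.979 to 10.8 CPM (median 5.52) in PVT STZ libraries, an 11.1-fold range, and 2.96, 12.1, 4.74 and 9.01 CPM in control libraries. Egr3 had 37.8 to 254 CPM (median 179) in STZ and 46.1, 183, 127 and 69.2 CPM in control libraries. Its log2 fold change was 0.51 (SE 0.56, adjusted p = 0.685). Egr1 had 73.5 to 282 CPM (median 183) in STZ and 93.8, 369, 227 and 258 CPM in control libraries, with a log2 fold change of −0.42 (SE 0.45, adjusted p = 0.674). Arc had 48.3 to 314 CPM (median 141) in STZ and 62.6, 300, 180 and 98.0 CPM in control libraries, with −0.06 (SE 0.58, adjusted p = 0.971). Low and high libraries were thus found in both groups.

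For the remaining members, Fosb, Fosl2, Junb and Egr4 had log2 fold changes of 0.13, −0.15, −0.39 and −0.30 in the PVT, with SEs of 0.35, 0.20, 0.40 and 0.49, and Jun had 0.08 (SE 0.10). None of these 5 was called, with adjusted p of 0.659 to 0.885.

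The PVT libraries that were low in these genes were the same for most of them and were rich in thalamus markers. STZ replicates 5 and 6 and control replicate 1 had the lowest Egr1, at 73.5, 82.5 and 93.8 CPM, and the highest mean log2 CPM of thalamus markers, at 7.07, 6.50 and 5.96, against 4.40 to 5.87 in the other PVT libraries. Control replicate 3, at 5.87, was near control replicate 1 in these markers, but had Egr1 at 227 CPM and Arc at 180 CPM. STZ replicate 5 was lowest of its group for 6 of the 10 genes, and control replicate 1 for 9 of 10. Jun ran the other way, with its highest PVT levels in STZ 5, STZ 6 and control 1 (54.4, 48.4 and 47.9 CPM). STZ replicates 5 and 6 were also lowest of their group in summed striatal markers (177 and 608 CPM). They were highest of it in hypothalamic and pituitary genes (918 and 599 CPM). Control replicate 1 was neither lowest nor highest of its group in either list (524 and 163 CPM). Without the 4 PVT libraries lowest in thalamus markers (STZ replicates 1, 2 and 3 and control replicate 2), 0 genes were called and the median log2 fold change of the 10 was −0.68, against −0.23 with all libraries. Between the PVT groups, 7 of 8 ependyma markers, 3 of 7 oligodendrocyte markers and 1 of 7 microglia markers were called lower in STZ. With 0 called, choroid plexus markers were lower for 9 of 9 (median −0.75, 7 at an unadjusted p under 0.05), striatal markers higher for 8 of 8 (median 0.67) and blood markers higher for 5 of 5 (median 0.42). The part of punch content in the values of these genes was not tested.

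**Figure D5:**
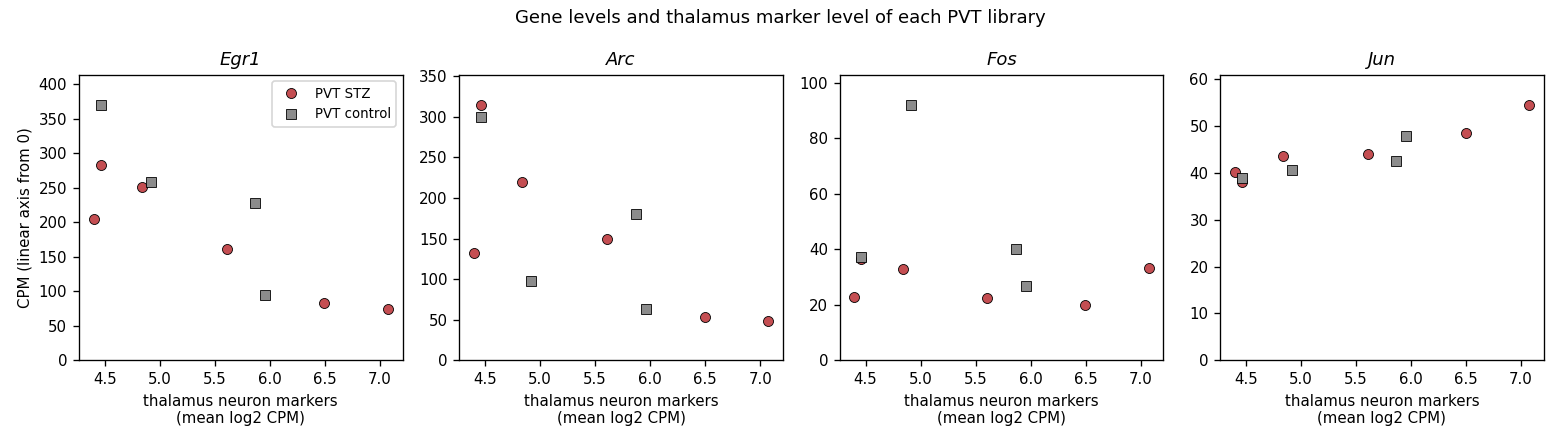
CPM of Egr1, Arc, Fos and Jun (y axes, linear from 0) against the mean log2 CPM of 12 thalamus neuron markers (x axis) in the 6 STZ and 4 control PVT libraries. The 3 libraries on the right have the lowest Egr1 and Arc and the highest Jun, and the Fos value of 91.8 CPM is control replicate 4.

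In the PVT the log2 ratio of Egr4 to Egr3 was −3.13 to −2.47 in STZ and −2.45 to −1.17 in control libraries, and that of Egr1 to Egr3 was −0.03 to 0.96 in STZ and 0.83 to 1.90 in control libraries. The second ratio overlapped between the groups and the first did not, by a narrow margin. The log2 ratio of Egr2 to Egr3 was −5.59 to −4.15 in STZ and −4.74 to −2.94 in control libraries. That of Fos to Jun was −1.29 to −0.07 in STZ and −0.84 to 1.17 in control libraries. Both of these overlapped between the groups, as did the ratios of Fosb, Fosl2 and Junb to Jun. These ratios too were chosen after the values were seen, and the p-values of the same test are not given.

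Among the 89 tested genes of the related lists, 1 was called in the PVT, a smaller share than the 2.07% of all genes. Maff, a small MAF factor that can pair with FOS, rose by 1.08 in log2 units (SE 0.20, adjusted p = 0.0211), with 4.40 ± 0.72 CPM in PVT STZ and 2.07 ± 0.57 CPM in PVT control libraries (SD, n = 6 and 4). The adjusted p of Maff was 0.0639 without control replicate 1, 0.0934 with a replicate block and 0.198 without the 4 libraries lowest in thalamus markers. The smallest p of other lists were those of Csrnp1, an AXIN1-induced factor, with 0.63 (SE 0.15, adjusted p = 0.0557), Mef2a, an activity-regulated transcription factor, with 0.32 (SE 0.09, adjusted p = 0.109), and the secreted neuropeptide precursor Vgf, with 0.42 (SE 0.14, adjusted p = 0.143). For Camk2b, a calcium-dependent kinase that binds ARC, the log2 fold change was 0.24 (SE 0.10, adjusted p = 0.256), and for the corepressor Nab1 −0.01 (SE 0.06, adjusted p = 0.973).

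The difference of the STZ effect between regions was tested with all 20 libraries. It was called for 0 of the 10 genes (edgeR, against 0% of 17427 genes tested), with 1, Fosl2, at an unadjusted p under 0.05, and DESeq2 also called 0. The difference, PVT effect minus pIC effect, was 0.06 for Fos (SE 0.39), 0.33 for Egr1 (SE 0.50), 1.03 for Egr2 (SE 0.70), 0.41 for Egr4 (SE 0.54) and 0.58 for Fosl2 (SE 0.27) on the log2 scale, each with an adjusted p of 1. The lower levels in the pIC were not shown to be particular to that region.

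Levels were also compared between the regions. By group mean, pIC control was highest of the 4 groups for 9 genes (all but Jun), and PVT STZ was lowest for 7. In STZ mice 2 of the 10, Egr1 and Egr3, were lower in the PVT than in the pIC, a share no larger than the 23.1% of all genes called lower. Egr1 averaged 176 ± 86.1 CPM in PVT STZ and 401 ± 77.0 CPM in pIC STZ libraries (SD, n = 6 each), with a log2 difference of −1.19 (SE 0.31, adjusted p = 0.00752). For Egr3 the means were 151 ± 85.0 and 347 ± 35.4 CPM in the same order, with −1.20 (SE 0.38, adjusted p = 0.0207). Arc had −1.12 (SE 0.45, adjusted p = 0.0538), and with a replicate block −1.32 and an adjusted p of 0.00712. Without the 4 PVT libraries lowest in thalamus markers, 8 of the 10 were lower (all but Fos and Jun). For STZ mice this dropped PVT replicates 1, 2 and 3 and kept replicates 4, 5 and 6. The dropped STZ libraries were the highest of their group in each of the 8 but Arc. Lower PVT means of these genes thus follow from the choice of libraries. Genes called lower in all were 3911, against 3809 with all libraries, as counts and not as shares of the genes tested.

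In control mice 7 of the 10 were lower in the PVT (Fosb, Fosl2, Egr1, Egr2, Egr3, Egr4 and Arc), against 22.4% of all genes. Of the 90 tested genes of the related lists, 57.8% were also called lower. Neuron markers were called lower in the PVT for 5 of 6 in control mice (median −0.75) and for 5 of 6 in STZ mice (median −0.54). The part of neuron content in these differences was not tested. Fosl2 averaged 39.5 ± 8.53 CPM in PVT control and 77.3 ± 3.54 CPM in pIC control libraries (SD, n = 4 each), with −0.97 (SE 0.13, adjusted p = 2.2e-04). Arc averaged 160 ± 105 CPM in PVT control and 554 ± 136 CPM in pIC control libraries, with −1.80 (SE 0.49, adjusted p = 0.0206). Fos, at 48.9 ± 29.1 and 60.1 ± 6.12 CPM in that order, had −0.29 (SE 0.37, adjusted p = 0.563). Without PVT control replicate 4, Fos (adjusted p = 0.00143) and Junb were called too and Arc was not. Jun had means of 44.7 ± 5.94 CPM in PVT STZ, 42.5 ± 3.92 CPM in PVT control, 43.5 ± 3.69 CPM in pIC STZ and 39.6 ± 3.19 CPM in pIC control libraries, and none of its comparisons was called.

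Genes outside the 10 that followed them most closely from library to library were ranked by the Pearson correlation of their deviations from the group means with the mean standardised deviation of the 10, a description over the 10 libraries of a region. Among 13585 genes in the PVT, the orphan nuclear receptor Nr4a1 came first (r of 0.985), with Med10, Csgalnact2, Asphd1, the cAMP-responsive factor Crem, Brms1, Nab2 and Rbp4 next, at 0.954 to 0.975. Nr4a1, Crem and Nab2 belong to the related lists. Among 13119 genes in the pIC, Rcor1 (0.965), Tob1, Stt3a, St5, Slc38a9, Zbtb2, Nvl and Rbm12b1 came first, at 0.899 to 0.943 after Rcor1, and none is on those lists. Each of the 10 is itself part of the mean it was set against. Of the 10, Jun had the lowest correlation in both regions, with −0.903 in the PVT and 0.281 in the pIC. Fos had 0.484 in the PVT and 0.935 in the pIC.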

How the data were processed

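The authors deposited raw counts per Ensembl gene for 20 libraries, 1 column each. Per the submitters' processing notes the genome build is GRCm39 (mm39), while aligner, counter, annotation and strand setting are not given in the sources read, so a gene and an antisense partner may share reads. Symbols came from a GRCm38 annotation, which matched 51884 of 57180 identifiers. Groups followed the labels, and nothing states that libraries come from separate animals, so p-values measure the spread between libraries.

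Each comparison was fitted on all genes by the quasi-likelihood test of edgeR 4.0.16 (R 4.3.3, robust, TMM factors), after filterByExpr with a count minimum of 10 and a total of 15. The script was tested on simulated data. Adjusted p is the Benjamini-Hochberg value over all genes tested, called under 0.05, and the SE is the log2 fold change divided by the square root of F. CPM used TMM factors of all 20 libraries. No replicates were duplicates (lowest chi-square per degree of freedom 3.79). Alternatives used RLE and upper quartile scaling, DESeq2 1.42.0, limma 3.58.1 voom, other filters, a replicate block and left-out libraries. The genes, lists, marker lists and tests were chosen with earlier results of these data known. All 10 genes were named, and of each related list up to 3 called genes of smallest p, or the 1 of smallest p where none was called. The likeness ranking used genes of at least 1 CPM.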

Additional observations from a re-analysis of the deposited data

Results flagged for a closer look

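Jun in pIC STZ replicate 4 stood apart from its group, at 50.8 CPM against 43.5 CPM in the next highest of the 6 libraries, a gap of 0.764 of the group's range. Of the 40 sets of gene and group values looked at, this was the 1 past the limit for its group size, and chance gives about 1 in 20. Fos in PVT control libraries had a larger gap, 0.796 of the range, but stayed under the limit, which is higher for 4 libraries than for 6.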

How the results depend on the processing

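The count of called genes in the pIC, 4 as reported, was 7 in DESeq2, 7 in limma-voom, 1 with no filter beyond 1 count, 2 with a replicate block, 0 with all 20 libraries in 1 fit and 1 without the 4 libraries highest in striatal markers (an alternative chosen after seeing the data), and 0 to 5 with 1 library left out. Between regions in STZ mice, 2 as reported, it was 1 with no filter, 0 with glmTreat against a fold of 1.5 and 8 without the 4 PVT libraries lowest in thalamus markers. In control mice, 7 as reported, it was 4 with glmTreat and 6 to 8 with 1 library left out. No cause of these shifts was tested. In the PVT and for the difference between regions the count was 0 in every alternative run. Over all genes, the calls in the PVT were 353 as reported, 904 in DESeq2, 72 with a replicate block, 70 without the 4 libraries lowest in thalamus markers, 679 with all 20 libraries and 143 to 343 with 1 left out, and in the pIC 226 as reported, 468 in DESeq2, 360 in limma-voom, 127 without the 4 libraries highest in striatal markers and 128 to 272 with 1 left out.

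Signs that turned were all of uncalled log2 values. For STZ against control the block was the replicate number. STZ replicates 5 and 6 have no control of the same number and so did not inform the blocked effect. In the PVT the replicate block gave 0.0271 for Fosl2, −0.0302 for Jun, 0.0439 for Junb, 0.0475 for Egr1, 0.13 for Egr2, 0.14 for Egr4 and 0.51 for Arc. Arc was 0.0411 in limma-voom, Fosb −0.49 without the 4 libraries lowest in thalamus markers, and Nab1 0.00245 with RLE, 0.00322 in DESeq2 and 0.0696 without those 4. Without those 4 the difference between regions was −0.20 for Fos, 0.0293 for Jun, −0.41 for Junb, −0.11 for Egr1, −0.00954 for Egr2 and −0.34 for Egr4. With 1 library left out, the PVT values ran from −0.0435 to 0.27 for Fosb, −0.0363 to 0.0237 for Nab1, −0.40 to 0.43 for Arc and −0.62 to 0.0188 for Junb. The differences between regions ran from −0.145 to 0.558 for Fos, −0.118 to 0.0027 for Jun and −0.0357 to 0.602 for Junb, the log2 difference of Jun between regions in STZ mice from −0.0292 to 0.095, and the PVT log2 ratio of Fosb to Jun from −0.32 to 0.18.

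Deviations of same-numbered STZ and control libraries had correlations of −0.26 to 0.44 in the PVT and −0.04 to 0.30 in the pIC. PVT and pIC libraries share labels in their titles, which do not say that a label names a mouse. Deviations of PVT and pIC libraries with 1 label had correlations of −0.09 to 0.21, and 5 of 10 were best matched to their own label. These values do not settle whether libraries with 1 label came from 1 mouse. The main fits treated all libraries as unpaired. With the block by this shared label, 7 genes were called between regions in control mice, 3 in STZ mice, where Arc was added, and 0 for the difference. Egr2, with 24 to 612 counts per library, was the member most limited by depth.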
